A study of Mus musculus with 9 samples.

Results

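Microglia sorted from the mouse brain were compared as 1 group with monocytes sorted from the spleen, and the genes sought were those on which both brain sorts stood on the same side of the monocytes. The brain group had 6 arrays, 3 of Ly6C-high microglia and 3 of Ly6C-low microglia, and the monocyte group had 3, which together are all 9 arrays of the series. A gene counted as shared where every brain array lay above, or every brain array lay below, all 3 monocyte arrays. Of 19937 genes with a named probe set, 4625 (23.2%) met this rule: 2169 (10.9%) lay above and 2456 (12.3%) below. All cells came from wild-type C57BL/6 mice with no treatment named, and no age or sex is used here. Brains were perfused, digested with collagenase for 30 to 60 minutes, enriched on Percoll and sorted on CD45, CD11b, EMR1 (the macrophage antigen encoded by Adgre1), Ly6C and MHC class II. The spleen samples carry the same protocol text with the same digestion time, but it names brains alone, so whether the spleens were handled alike is unclear, and cell type and organ cannot be told apart. The labels name the cell type of the Ly6C-high sort as MgSCs and that of the Ly6C-low sort as bulk microglia cells. Whether replicates came from separate animals is not said, so the spread that a p-value is measured against is that of these samples and may be technical.

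Microglia are the resident macrophages of the brain. They arise from embryonic precursors, renew themselves in place, and keep their identity through TGF-beta and CSF1 receptor signals and transcription factors such as Sall1. Monocytes are made in the bone marrow, circulate, and wait in the spleen as a reserve that can be released. Both express many macrophage genes, so a comparison between them asks what a brain sort has or lacks beside another cell of the mononuclear phagocyte system.

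Values are log2 intensities, and a difference is the average of both sorts' means minus the monocyte mean, ± its standard error (SE), from limma's fit of 3 group means. P-values are limma's, two-sided and adjusted by Benjamini-Hochberg across the 19937 genes. At an adjusted p under 0.05, 3625 genes (18.2%) differed, 1357 (6.81%) higher in the brain sorts and 2268 (11.4%) lower. Genes that were both shared in all 6 brain arrays and past this threshold numbered 2698 (13.5%), with 821 (4.12%) higher and 1877 (9.41%) lower. These are called shared higher and shared lower genes from here on. The rule and the test use the same values, so meeting both is not added support. The test is of the average, so 1 sort alone need not differ from the monocytes. In the same fit, Ly6C-low minus monocytes was 0.40 for Mfsd2a (limma adjusted p = 0.3517). Ly6C-high minus monocytes was 0.46 for Ski (limma adjusted p = 0.2171). For Ttr both sorts passed (limma adjusted p = 4.70e-06 for Ly6C-high and 4.61e-06 for Ly6C-low). At least a 2-fold difference was reached by 353 (1.77%) of the shared higher and 1114 (5.59%) of the shared lower genes. A gap of at least 1 log2 unit between the nearest brain and monocyte arrays was found for 71 genes (0.356%) above and 328 (1.65%) below. The median size of the difference, without its sign, was 0.86 among shared higher genes and 1.12 among shared lower genes. Over all genes the median of the signed difference was 0.085. In that median higher and lower genes offset each other, so it is not a typical size.

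More genes passed as lower than as higher, and the split moved with the scaling. Of the genes past the threshold, 37.4% were higher in the values as deposited, 48.6% after quantile normalization and 46.5% after cyclic loess normalization. Among the shared genes that passed, the corresponding shares were 30.4%, 41.3% and 39.5%. When the 6 brain arrays were fitted as 1 group whose spread includes the difference between the sorts, 327 genes were higher and 1234 lower, so 20.9% were higher. Leaving out 1 monocyte array gave 753 (without replicate 1), 767 (without replicate 2) or 871 (without replicate 3) higher genes.

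Most shared genes that did not pass were small differences. There were 1348 of them above, with a median size of 0.28 and 76.0% of them dim (higher group mean below 6.13, the median of all gene means). Below there were 579, with a median size of 0.65 and 6.39% of them dim. Conversely, 536 genes passed as higher without being shared: Ly6C-low arrays overlapped the monocytes for 243 of these and Ly6C-high arrays for the other 293. Of the 391 genes that passed as lower without being shared, Ly6C-low arrays alone overlapped for 225, Ly6C-high arrays alone for 164, and both sorts for 2.

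The shared higher genes with the widest gaps were led by Ttr, which encodes the thyroid hormone and retinol carrier transthyretin, secreted in the brain by the choroid plexus. Ttr measured 12.96, 12.52 and 12.36 in the Ly6C-high arrays, 13.02, 12.59 and 11.88 in the Ly6C-low arrays, and 5.09, 5.60 and 4.81 in the monocytes. No brain array came near a monocyte array, and the sorts themselves overlapped. The difference was 7.39 ± 0.27 (SE), or 167-fold, with an adjusted p = 2.30e-06.

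Several of the next genes belong to cell junctions and the vessel wall. Tjp1, the tight junction scaffold ZO-1, measured 9.78, 9.97 and 10.52 in Ly6C-high, 9.57, 9.58 and 9.67 in Ly6C-low and 4.29, 4.79 and 4.86 in monocyte arrays. The brain arrays were all high and close together, 5.20 ± 0.19 (SE) above the monocytes (36.8-fold, adjusted p = 1.93e-06). Jam2, a junctional adhesion molecule, ranged from 8.99 over a median of 9.21 to 10.42 in the brain arrays and from 5.77 to 5.94 in the monocytes, a difference of 3.55 ± 0.27 (SE) with an adjusted p = 6.55e-05. Cd34, a sialomucin of vessels and progenitor cells, measured 10.79, 11.11 and 11.14 in Ly6C-high, 10.32, 10.79 and 10.62 in Ly6C-low and 7.51, 7.26 and 7.001 in monocyte arrays. The difference in Cd34 was 3.54 ± 0.15 (SE), 11.6-fold, with an adjusted p = 5.48e-06, and the lowest Ly6C-high and the highest Ly6C-low array were level at 10.79. Edn1, the precursor of the vasoconstrictor endothelin-1, was 9.57, 8.96 and 9.85 in Ly6C-high, 8.19, 7.78 and 8.23 in Ly6C-low and 5.58, 5.14 and 5.53 in monocyte arrays (3.35 ± 0.21 SE, adjusted p = 2.57e-05). All Ly6C-high arrays were above the Ly6C-low arrays for Edn1, and all brain arrays were above the monocytes.

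Secreted and matrix-related products formed another group among the leading genes. Adamts1, a secreted metalloprotease, measured 10.30, 10.76 and 11.05 in Ly6C-high, 11.68, 11.63 and 11.94 in Ly6C-low and 6.39, 6.28 and 6.82 in monocyte arrays, so it was higher by 4.73 ± 0.19 (SE), 26.6-fold (adjusted p = 3.24e-06). Sparc, a matricellular glycoprotein, measured 12.09, 12.35 and 12.42, then 12.72, 12.80 and 12.82, against 8.96, 9.14 and 9.31, a difference of 3.40 ± 0.11 (SE) with an adjusted p = 1.78e-06. In both genes the Ly6C-low arrays were the higher of the brain sorts. Gas6, a ligand of the TAM receptors that bridges them to dying cells, ranged from 8.19 over a median of 8.69 to 9.12 in the brain arrays and from 5.84 to 5.96 in the monocytes (2.80 ± 0.20 SE, adjusted p = 4.97e-05). The sorts overlapped for Gas6.

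The rest of the 15 widest gaps were spread over signalling and membrane genes. Rapgef5, an exchange factor for Rap GTPases, measured 7.65, 7.78 and 7.65 in Ly6C-high, 9.87, 9.80 and 9.79 in Ly6C-low and 4.79, 4.88 and 5.07 in monocyte arrays (3.85 ± 0.09 SE, adjusted p = 4.62e-07). Each of the 3 groups formed its own tight band on Rapgef5. Adgrl2, a latrophilin receptor, was higher by 3.80 ± 0.32 (SE), Tmc7 by 3.16 ± 0.09, Lhfpl2 by 3.61 ± 0.18, Tcim by 3.75 ± 0.37, Cmtm8 by 2.67 ± 0.19 and Pik3r3, a regulatory subunit of phosphoinositide 3-kinase, by 2.93 ± 0.46. Their adjusted p-values ran from 7.67e-07 for Tmc7 to 0.0030 for Pik3r3. The Tcim monocyte arrays were wide apart, at 4.40, 4.82 and 6.29, and all lay below the lowest brain array of 8.69.

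**Figure D1:**
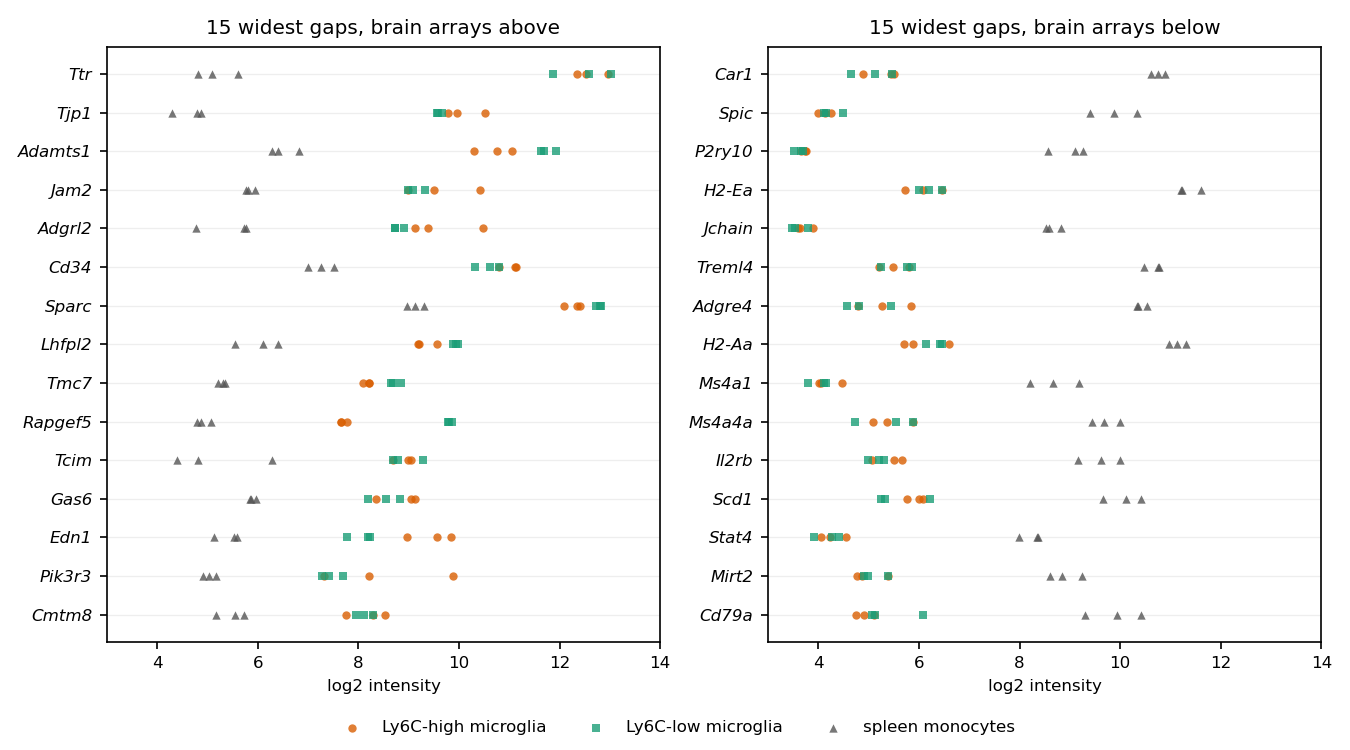
Log2 intensity of the 15 shared higher genes (left) and 15 shared lower genes (right) with the widest gaps, 1 row per gene and 1 point per array (Ly6C-high circles, Ly6C-low squares, monocytes triangles). Brain and monocyte points do not overlap in any row; for Ttr the brain arrays lie between 11.88 and 13.02 and the monocytes between 4.81 and 5.60.

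Among the shared lower genes with the widest gaps, several belong to cells of the spleen. Car1, a carbonic anhydrase of red cell precursors, measured 5.50, 4.89 and 5.45 in Ly6C-high, 5.47, 4.65 and 5.13 in Ly6C-low and 10.76, 10.90 and 10.62 in monocyte arrays. It was lower in the brain sorts by 5.58 on the log2 scale, a difference of -5.58 ± 0.20 (SE), 47.8-fold, adjusted p = 2.08e-06. Spic, the transcription factor of red pulp macrophages, measured between 3.98 and 4.49 in the brain arrays (median 4.15) and 9.40, 9.88 and 10.34 in the monocytes (-5.68 ± 0.20 SE, 51.3-fold, adjusted p = 1.93e-06). For both genes the brain arrays of either sort lay at one low level.

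Genes of lymphocytes and plasma cells were also in this set. Jchain, the joining chain of secreted antibodies, lay between 3.48 and 3.90 in the brain arrays (median 3.62) and measured 8.53, 8.58 and 8.82 in the monocytes (-4.98 ± 0.12 SE, adjusted p = 4.62e-07). Ms4a1, which encodes CD20, lay between 3.79 and 4.47 (median 4.08) against 8.21, 9.19 and 8.66 (-4.59 ± 0.21 SE, adjusted p = 6.51e-06). Cd79a, a B cell receptor signalling chain, lay between 4.75 and 6.08 (median 5.09) against 9.29, 10.41 and 9.94 (-4.71 ± 0.29 SE, adjusted p = 2.42e-05). The highest Cd79a value among the brain arrays was that of Ly6C-low replicate 3. Il2rb, an interleukin receptor chain of NK and T cells, differed by -4.30 ± 0.20 (SE), Stat4 by -3.99 ± 0.16 and P2ry10, a receptor of lymphoid cells, by -5.30 ± 0.15.

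The remaining leading lower genes were myeloid or metabolic. Treml4, a receptor of nonclassical monocytes and spleen macrophages, measured 5.80, 5.20 and 5.47 in Ly6C-high, 5.25, 5.76 and 5.86 in Ly6C-low and 10.47, 10.78 and 10.76 in monocyte arrays (-5.11 ± 0.18 SE, 34.6-fold, adjusted p = 1.93e-06). Adgre4, a myeloid adhesion receptor, differed by -5.29 ± 0.25 (SE), Ms4a4a by -4.29 ± 0.27, the long noncoding RNA gene Mirt2 by -3.85 ± 0.20 and Scd1, a fatty acid desaturase, by -4.29 ± 0.24. Among these 4 genes the adjusted p was lowest for Adgre4, at 6.56e-06, and highest for Ms4a4a, at 2.71e-05. No call among the 30 leading genes was lost under any alternative. They were picked in the same values for wide gaps and for passing the threshold, so this is not added support.

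The antigens used in the sort did not all follow the comparison. Ptprc, which encodes CD45, measured 8.02, 9.99 and 7.65 in Ly6C-high, 9.68, 10.15 and 10.23 in Ly6C-low and 11.61, 11.43 and 11.59 in monocyte arrays. It was a shared lower gene (-2.26 ± 0.45 SE, adjusted p = 0.0095), with an adjusted p = 0.0588 when the brain arrays were fitted as 1 group. Itgam, which encodes CD11b, differed by -0.48 ± 0.28 (SE, adjusted p = 0.2576), with Ly6C-high arrays between 7.77 and 9.26, below the monocytes' 10.34 to 10.66, and Ly6C-low arrays between 11.36 and 11.52, above them. Adgre1, which encodes EMR1, differed by -0.52 ± 0.24 (SE, adjusted p = 0.1752) with the same order of the groups. The average of both sorts therefore hid opposite placements for Itgam and Adgre1. Both Ly6C probe sets are annotated to Ly6c1 and Ly6c2 together and entered no test. On one of them the Ly6C-high arrays measured 12.40, 12.43 and 12.50, the Ly6C-low arrays 10.39, 8.94 and 7.07 and the monocytes 10.31, 10.20 and 10.51. On the other the Ly6C-high arrays measured 11.85, 12.03 and 12.03, the Ly6C-low arrays 9.87, 8.79 and 7.25 and the monocytes 11.69, 11.64 and 11.65. The monocytes were thus level with Ly6C-low replicate 1 on the former and close to the Ly6C-high arrays on the latter, and below every Ly6C-high array on both.

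Marker lists of cell types set the levels of the arrays beside these results. The mean of 28 homeostatic microglia genes was 8.03, 8.19 and 8.67 in the Ly6C-high arrays, 10.63, 10.99 and 10.89 in the Ly6C-low arrays and 7.55 to 7.57 in the monocytes. The mean of 23 brain endothelium genes was 10.21, 10.36 and 10.68 in Ly6C-high, 7.66, 7.18 and 6.57 in Ly6C-low and 6.16 to 6.22 in monocyte arrays. Both lists were therefore above the monocyte range in every brain array, with opposite orders of the sorts, and genes of endothelium were at their highest in arrays labelled microglia. The classical monocyte list (20 genes) was at 10.49 to 10.75 in the monocytes, at 9.89 in Ly6C-high replicate 2 and at 6.74 to 7.95 in the other brain arrays. The neutrophil list (16 genes) was at 9.61 to 10.42 in the monocytes, at 8.75 in Ly6C-low replicate 3 and at 6.03 to 7.33 in the other brain arrays. The B cell list (11 genes) was at 8.21 to 8.92 in the monocyte arrays and at 5.71 to 6.34 in the brain arrays, the T cell list (10 genes) at 7.88 to 8.39 and 5.65 to 6.09, and the NK cell list (13 genes) at 7.24 to 8.23 and 5.14 to 5.48. The part of these lists in the results below was not tested, and in bulk samples fewer cells of a type and less RNA per cell cannot be told apart.

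**Figure D2:**
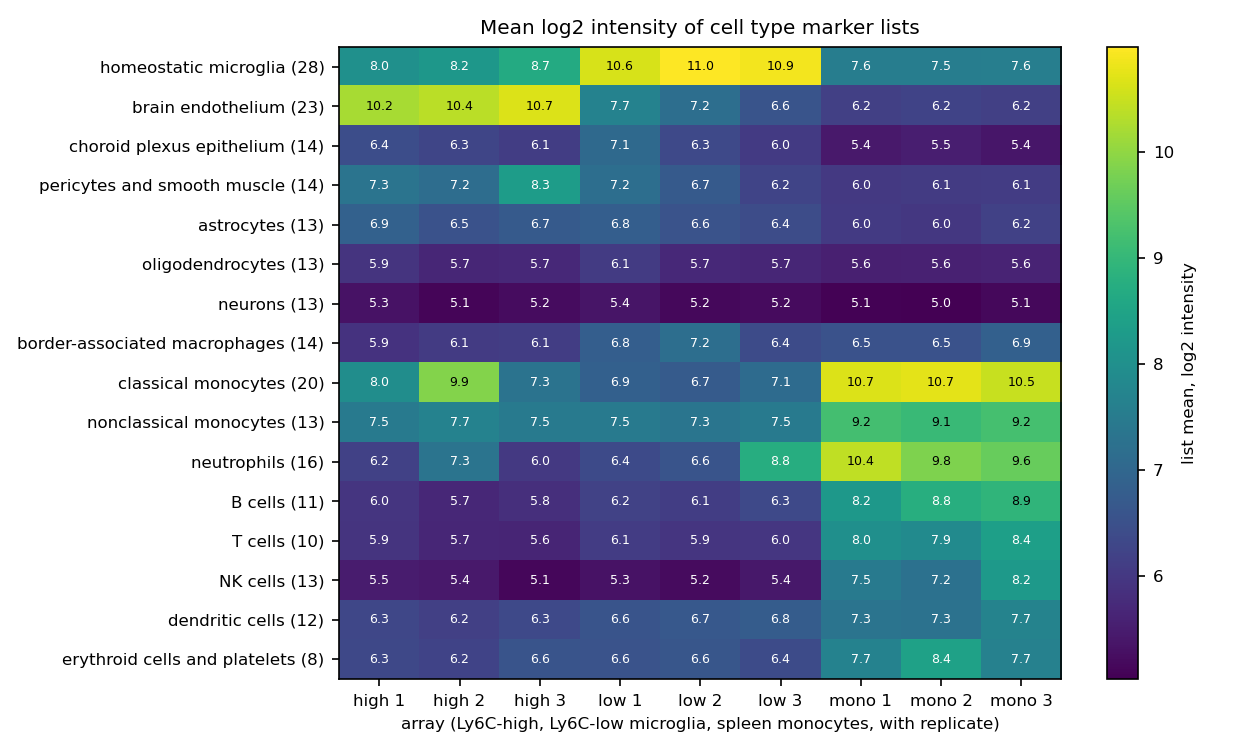
Mean log2 intensity of each cell type marker list (rows, number of measured genes in brackets) in each of the 9 arrays (columns), with darker cells lower and yellow cells higher. The endothelium list is at 10.21 to 10.68 in the Ly6C-high arrays and the microglia list at 10.63 to 10.99 in the Ly6C-low arrays, while the lymphocyte lists are highest in the monocyte arrays.

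Among homeostatic microglia genes, 24 of 28 measured members passed as higher and 0 as lower, and 15 were shared higher genes. Over all genes, 6.81% passed as higher, 11.4% passed as lower and 4.12% were shared higher. The median difference of the list was 2.003. Tmem119, a microglial membrane protein, measured 8.23, 8.47 and 9.32 in Ly6C-high, 11.58, 12.06 and 12.18 in Ly6C-low and 6.22, 6.46 and 6.04 in monocyte arrays. The difference in Tmem119 was 4.07 ± 0.25 (SE), 16.7-fold, with an adjusted p = 2.35e-05. Gpr34, a lysophospholipid receptor, measured 7.64, 7.43 and 8.03, then 10.32, 11.01 and 10.60, against 5.43, 5.43 and 5.44 (3.74 ± 0.17 SE, adjusted p = 6.51e-06). P2ry12, the ADP receptor by which microglial processes sense injury, measured 8.06, 8.49 and 9.49, then 10.59, 11.39 and 11.40, against 6.10, 6.15 and 6.30 (3.72 ± 0.31 SE, adjusted p = 1.05e-04). In each of these genes the Ly6C-high arrays lay between the monocytes and the Ly6C-low arrays.

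The same order of the sorts held across the list. All 15 shared higher members were also higher in Ly6C-low than in Ly6C-high arrays at an adjusted p under 0.05 in the same fit. With the brain arrays fitted as 1 group, 7 members of the list were shared and past the threshold. Fcrls, a microglial Fc receptor-like molecule, was among those lost, with a difference of 3.74 ± 0.33 (SE) and adjusted p-values of 1.36e-04 and 0.0788 in the fits of 3 and of 2 groups. Trem2, a lipid-sensing receptor, was too, with Ly6C-high arrays at 7.91, 7.46 and 8.11 and monocytes at 7.02, 7.11 and 7.13 (2.21 ± 0.17 SE, adjusted p = 8.00e-05 and 0.1659). Cx3cr1, the fractalkine receptor, named after its values were seen, was at 10.41 to 10.99 in Ly6C-high, 12.52 to 12.55 in Ly6C-low and 10.08 to 10.22 in monocyte arrays (1.48 ± 0.13 SE, adjusted p = 1.15e-04 and 0.1448).

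Of 27 measured myeloid transcription factors, 6 were shared higher genes (Cebpd, Klf2, Klf4, Sall1, Sall3 and Tcf4) and 5 shared lower genes (Spi1, Irf4, Nr1h3, Pparg and Nfe2), beside 4.12% and 9.41% of all genes. The list median was -0.51. Sall1, which maintains microglial identity, measured 7.78, 7.21 and 8.21 in Ly6C-high, 10.41, 10.50 and 10.44 in Ly6C-low and 6.11, 5.84 and 5.73 in monocyte arrays (3.20 ± 0.20 SE, 9.18-fold, adjusted p = 2.49e-05). Klf2 ranged from 9.09 over a median of 9.42 to 9.80 in the brain arrays and from 7.72 to 8.36 in the monocytes (1.34 ± 0.20 SE, adjusted p = 0.0026). The sorts overlapped for Klf2 and not for Sall1. Pparg, a lipid-sensing nuclear receptor, lay between 5.71 and 6.32 against 7.39 to 7.53 (-1.48 ± 0.11 SE, adjusted p = 5.63e-05), and Nfe2, a factor of megakaryocytes and red cell precursors, between 5.39 and 7.01 against 7.68 to 8.11 (-1.91 ± 0.19 SE, adjusted p = 2.88e-04). Cebpd (1.17 ± 0.23 SE, adjusted p = 0.0094) and Tcf4 (0.80 ± 0.14 SE, adjusted p = 0.0054) were named after their values were seen.

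Purinergic and sensing receptors went both ways: of 16 measured members, 3 were shared higher (P2ry12, P2ry13 and Gpr34) and 5 shared lower (P2ry1, P2ry10, P2rx4, Nt5e and Gpr65), beside 4.12% and 9.41% of all genes. Gpr65, an acid-sensing receptor, measured 5.29, 6.63 and 5.28 in Ly6C-high, 6.97, 8.06 and 7.94 in Ly6C-low and 9.96, 10.28 and 10.22 in monocyte arrays (-3.46 ± 0.35 SE, adjusted p = 2.82e-04). The list median was -0.24 and became 0.055 after cyclic loess normalization, so the list as a whole had no settled direction.

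Brain endothelium genes were the second list with mostly higher members, with 21 of 23 past the threshold as higher, 0 as lower, 12 shared higher genes and a median difference of 2.46. Over all genes, 6.81% passed as higher, 11.4% passed as lower and 4.12% were shared higher. Ly6C-low replicate 3 limited the count of 12: without it, 20 members were shared higher genes. Of the 12, 11 were higher in Ly6C-high than in Ly6C-low arrays at an adjusted p under 0.05, and Tjp1 was not. Slco1c1, a thyroid hormone transporter of the blood-brain barrier, measured 11.06, 11.10 and 11.42 in Ly6C-high, 7.46, 6.04 and 5.69 in Ly6C-low and 4.59, 4.71 and 4.60 in monocyte arrays. The Ly6C-low arrays were above the monocytes and far below the Ly6C-high arrays. The difference was 4.16 ± 0.34 (SE) with an adjusted p = 9.76e-05, and an adjusted p = 0.1207 in the fit of 2 groups.

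Other barrier genes had still narrower gaps. Slco1a4, an organic anion transporter, measured 11.32, 11.16 and 11.47, then 7.67, 6.60 and 4.61, against 4.17, 4.22 and 3.89 (4.71 ± 0.54 SE, adjusted p = 6.12e-04). Car4, a carbonic anhydrase of capillaries, measured 11.33, 11.64 and 11.50, then 6.50, 5.71 and 5.27, against 5.13, 5.19 and 5.19 (3.49 ± 0.23 SE, adjusted p = 3.42e-05). The lowest Ly6C-low array stood 0.07 above the highest monocyte array for Car4 and 0.40 for Slco1a4, and in both genes it was replicate 3. Cldn5, the barrier claudin, was named after its values were seen and lay at 10.71 to 11.77 in Ly6C-high, at 7.56 to 8.96 in Ly6C-low and at 6.49 to 6.89 in monocyte arrays (3.08 ± 0.33 SE, adjusted p = 4.15e-04). Cdh5, the endothelial cadherin, passed (adjusted p = 0.0020) and was not shared, since Ly6C-low replicate 3 at 6.72 lay among the monocytes at 6.71 to 7.20. With the brain arrays as 1 group, 3 endothelium members were shared and past the threshold, and the adjusted p was 0.1073 for Slco1a4, 0.2351 for Car4, 0.0985 for Cldn5 and 0.2169 for Cdh5.

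Pericyte and smooth muscle genes were shared higher for 5 of 14 measured members (Pdgfrb, Rgs5, Acta2, Vtn and Myh11) and shared lower for 1 (Anpep), beside 4.12% and 9.41% of all genes. The list median was 0.68. With the brain arrays as 1 group, 3 were shared higher. The call of Anpep was lost without any 1 of the monocyte arrays and without Ly6C-low replicate 2 or replicate 3. Rgs5, a G protein regulator of pericytes, measured 9.77, 8.74 and 10.43 in Ly6C-high, 8.55, 8.02 and 6.42 in Ly6C-low and 5.54, 4.78 and 4.94 in monocyte arrays (3.57 ± 0.50 SE, adjusted p = 0.0018). Acta2, smooth muscle actin, measured 9.01, 9.78 and 10.03, then 9.66, 8.79 and 8.03, against 7.04, 7.13 and 6.82 (2.22 ± 0.35 SE, adjusted p = 0.0029). The sorts overlapped for Acta2. The mean of the pericyte list was 6.25 to 8.32 in the brain arrays and 6.03 to 6.08 in the monocytes, highest in Ly6C-high replicate 3.

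Extracellular matrix genes were shared higher for 8 of 22 measured members and shared lower for 3 (Vcan, Mmp9 and Tgfbi), beside 4.12% and 9.41% of all genes. The lower count is not read as a result about the list. The median was 0.69, and 4 were shared higher with the brain arrays as 1 group. Sparcl1, a matricellular relative of Sparc, measured 11.81, 11.57 and 11.99 in Ly6C-high, 10.27, 9.40 and 8.05 in Ly6C-low and 6.09, 5.94 and 5.65 in monocyte arrays (4.62 ± 0.41 SE, adjusted p = 1.41e-04). Plxdc2 ran the other way within the brain, at 7.38, 7.92 and 8.58 in Ly6C-high and 11.59, 11.88 and 11.85 in Ly6C-low arrays, against 6.28, 6.07 and 6.82 (3.48 ± 0.26 SE, adjusted p = 6.41e-05, and 0.1054 in the fit of 2 groups). Among members named after their values were seen, the basement membrane collagen gene Col4a1 followed the order of Sparcl1 (Ly6C-high arrays 7.59 to 8.65, Ly6C-low 6.38 to 6.61, monocytes 6.14 to 6.22). The gelatinase gene Mmp2 followed the order of Plxdc2 (Ly6C-high 6.25 to 6.61, Ly6C-low 8.15 to 8.74, monocytes 5.99 to 6.09). Tgfbi, a secreted adhesion protein, ranged from 6.46 over a median of 7.88 to 9.03 in the brain arrays and from 10.87 to 10.998 in the monocytes (-3.11 ± 0.45 SE, adjusted p = 0.0021).

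Lists of other brain cells had 1 to 4 shared higher members each, to be read beside the 4.12% of all genes. Choroid plexus epithelium had 3 shared higher members of 14 measured (Ttr, Sostdc1 and Igf2) and 1 shared lower (Aqp1), with a median of 0.43. The call of Ttr held in every alternative, while those of Sostdc1 (1.64 ± 0.40 SE, adjusted p = 0.0243) and Igf2 (1.19 ± 0.31 SE, adjusted p = 0.0317) were lost without any 1 of the 3 monocyte arrays or without Ly6C-low replicate 2, when the count was 1. That of Igf2 was also lost without Ly6C-high replicate 1, and that of Aqp1 without monocyte replicate 2. Kl and Clic6, choroid plexus genes named after their values were seen, did not pass: Kl measured 6.85 in Ly6C-low replicate 1 and 4.92 to 5.34 in the other brain arrays, and Clic6 measured 5.70 and 4.22 to 4.42. Both were highest in Ly6C-low replicate 1, as were Ttr at 13.02, Sostdc1 at 8.78 and Igf2 at 8.39. Ttr was also high in the other brain arrays, at 11.88 to 12.96. The list mean was 7.07 in Ly6C-low replicate 1, 6.05 to 6.44 in the other brain arrays and 5.39 to 5.53 in the monocytes. The part of choroid plexus genes in the level of Ttr was not tested.

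Astrocyte genes were shared higher for 2 of 13 (Slc1a3 and Glul), oligodendrocyte genes for 1 of 13 (Mal, and 2 without Ly6C-high replicate 3), and neuronal genes for 4 of 13 with 1 shared lower. The gap of Slc1a3 was 0.03 and closed after quantile normalization or median centring. Slc1a3 and Mal did not pass in limma's fit of 2 groups (adjusted p = 0.1422 and 0.0773). Glul, glutamine synthetase, lay between 11.55 and 12.13 in the brain arrays (median 11.87) and measured 10.12, 9.95 and 10.43 in the monocytes (1.68 ± 0.13 SE, adjusted p = 7.33e-05). The shared higher neuronal members were Snap25, Stmn2, Slc17a7 and Camk2a, with differences of 0.45 to 1.28 and no brain array above 7.35, and their count was 2 without monocyte replicate 1 or without replicate 3, and 1 with the brain arrays as 1 group, where Snap25, Stmn2 and Camk2a did not pass (adjusted p = 0.1175, 0.1219 and 0.1197). The call of Stmn2 was lost in 14 of 21 alternatives, and both Stmn2 and Snap25 were lost without monocyte replicate 2. Thy1, a member of the neuronal list that T cells also express, was shared lower (-3.06 ± 0.25 SE, adjusted p = 1.02e-04). The list means of brain and monocyte arrays stood at 6.42 to 6.89 and 6.00 to 6.18 for astrocytes, 5.66 to 6.06 and 5.56 to 5.62 for oligodendrocytes, and 5.10 to 5.38 and 5.03 to 5.15 for neurons. Border-associated macrophage genes had 3 shared higher members of 14 (Lyve1, Stab1 and Folr2) and 1 shared lower, the sialic acid receptor gene Siglec1 (-1.18 ± 0.18 SE, adjusted p = 0.0024). The call of Folr2 was lost in 8 of 20 alternatives, and that of Stab1 in the fit of 2 groups (adjusted p = 0.0965). The count of shared lower members of that list was 2 without Ly6C-high replicate 2 and 3 without Ly6C-low replicate 2.

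Part of the genes of cell stress and acute activation were shared higher genes. Of 22 measured immediate early genes, 9 were shared higher (Fos, Fosb, Jun, Egr1, Egr3, Ier3, Klf2, Klf4 and Rhob) and 1 shared lower (Fosl2, whose call was lost without any 1 of the monocyte or Ly6C-low arrays), with a median difference of 0.76. The shares of all genes were 4.12% shared higher and 9.41% shared lower. Egr1, a rapidly induced zinc finger factor, measured 11.99, 12.15 and 12.22 in Ly6C-high, 12.41, 12.41 and 12.54 in Ly6C-low and 10.10, 9.76 and 10.88 in monocyte arrays (2.04 ± 0.22 SE, 4.11-fold, adjusted p = 3.70e-04). Jun, a subunit of AP-1, measured 11.67, 11.65 and 11.73, then 12.15, 12.17 and 12.05, against 9.93, 9.09 and 10.60 (2.03 ± 0.27 SE, adjusted p = 0.0013). Fosb measured 11.92 to 12.30 in the brain arrays (median 12.16) and 10.81, 9.99 and 11.28 in the monocytes (1.44 ± 0.25 SE, adjusted p = 0.0048). The brain arrays were tightly grouped on these genes and the monocyte arrays spread, with replicate 2 lowest and replicate 3 highest on all 3.

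Heat shock chaperones were shared higher for 5 of 12 measured members and shared lower for 0, beside 4.12% and 9.41% of all genes. Their median was 0.62. Hspa1a, the inducible HSP70, measured 11.12, 11.18 and 11.69 in Ly6C-high, 11.50, 11.43 and 11.40 in Ly6C-low and 8.65, 7.60 and 9.16 in monocyte arrays. The difference was 2.92 ± 0.30 (SE), 7.56-fold, with an adjusted p = 3.33e-04, and the sorts overlapped. Hspa1b is a near-identical copy, so signal of the pair may not be separable. Hsph1, a co-chaperone of the same system, was at 9.38 to 10.00 in Ly6C-high, 10.62 to 10.69 in Ly6C-low and 8.02 to 8.19 in monocyte arrays (2.08 ± 0.13 SE, adjusted p = 2.90e-05). Hspb1, a small heat shock protein of vessels and muscle, was at 11.08 to 12.22 in Ly6C-high, 8.16 to 8.95 in Ly6C-low and 6.89 to 7.19 in monocyte arrays (2.99 ± 0.26 SE, adjusted p = 1.34e-04, and 0.0914 in the fit of 2 groups). After quantile or cyclic loess normalization, 8 chaperones were shared higher genes, and 14 and 15 immediate early genes. With the brain arrays as 1 group, 3 chaperones were. The protocol entered for all samples describes digestion of brains and does not name the spleen, and the part of tissue handling in these levels was not tested.

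**Figure D3:**
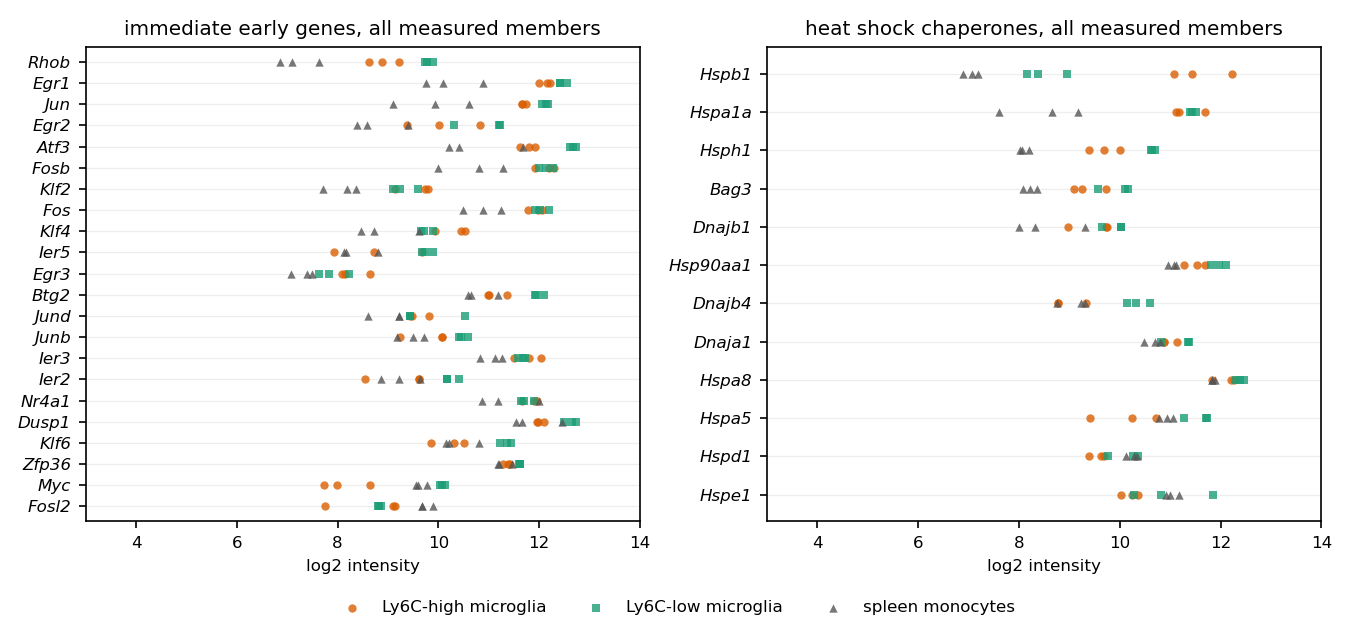
Log2 intensity of all measured immediate early genes (left) and heat shock chaperones (right), 1 row per gene and 1 point per array (Ly6C-high circles, Ly6C-low squares, monocytes triangles). Genes at the top have every brain point to the right of the monocytes, as for Hspa1a with brain arrays at 11.12 to 11.69 and monocytes at 7.60 to 9.16. Rows further down include overlapping ones, and Fosl2 has every brain point to the left of the monocytes.

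Classical monocyte genes were lower throughout: 20 of 20 measured members passed as lower and 17 were shared lower genes, against 11.4% and 9.41% of all genes, with a median of -3.26. Ms4a4c, a membrane protein of monocytes, measured 6.09, 9.15 and 5.18 in Ly6C-high, 5.72, 5.36 and 5.71 in Ly6C-low and 10.37, 10.53 and 10.61 in monocyte arrays (-4.30 ± 0.72 SE, adjusted p = 0.0042). Mgst1, a microsomal glutathione transferase, measured 5.96, 8.96 and 5.98, then 5.24, 5.03 and 5.18, against 10.27, 10.14 and 10.11 (-4.12 ± 0.60 SE, adjusted p = 0.0021). Plac8 measured 7.51, 10.51 and 5.62, then 5.11, 4.45 and 6.84, against 11.60, 11.59 and 11.46 (-4.88 ± 0.95 SE, adjusted p = 0.0086). Ly6C-high replicate 2 was the highest brain array in all 3 genes and still below every monocyte array.

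Neutrophil genes were shared lower for 10 of 16 measured members, beside 9.41% of all genes, and their median was -3.52. Il1r2, the decoy receptor of interleukin-1, measured 4.87, 5.75 and 4.68 in Ly6C-high, 5.34, 5.36 and 6.73 in Ly6C-low and 10.30, 10.05 and 9.82 in monocyte arrays (-4.60 ± 0.35 SE, adjusted p = 7.30e-05). Ly6g, the defining surface antigen of neutrophils, measured 4.44, 4.35 and 3.81, then 4.50, 4.38 and 7.25, against 9.38, 8.18 and 9.37 (-4.19 ± 0.62 SE, adjusted p = 0.0023). Retnlg, a resistin-like granulocyte gene, measured 5.97, 5.33 and 5.24, then 8.02, 9.01 and 11.002, against 11.35, 11.09 and 11.59 (-3.91 ± 0.55 SE, adjusted p = 0.0017, and 0.0967 in the fit of 2 groups). Ly6C-low replicate 3 was the highest brain array in all 3. Nonclassical monocyte genes were shared lower for 6 of 13 members, beside the same share of all genes. Among them was Itgal, the LFA-1 alpha chain, at 5.96 to 7.13 in the brain arrays (median 6.41) and 10.09 to 10.47 in the monocytes (-3.85 ± 0.24 SE, adjusted p = 2.42e-05).

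Most lymphocyte genes on the lists were shared lower genes. Shared lower genes made up 9 of 11 B cell, 8 of 10 T cell and 8 of 13 NK cell members, against 9.41% of all genes. The list medians were -2.30, -1.90 and -2.91, in that order. Cd3g, a chain of the T cell receptor complex, lay between 4.48 and 5.18 in the brain arrays (median 4.71) and measured 8.68, 8.29 and 9.21 in the monocytes (-3.98 ± 0.22 SE, adjusted p = 1.49e-05). Gzmb, the cytotoxic protease granzyme B, lay between 4.89 and 5.40 (median 5.08) against 8.61, 8.83 and 9.14 (-3.73 ± 0.17 SE, adjusted p = 6.51e-06). Pax5, the B lineage factor, lay between 5.74 and 6.30 (median 6.06) against 8.39, 8.62 and 8.85 (-2.59 ± 0.17 SE, adjusted p = 2.94e-05). The brain arrays lay close together on these 3 genes. Ccl5, a chemokine of cytotoxic lymphocytes, spread more widely, from 7.20 over a median of 7.76 to 9.82 in Ly6C-high replicate 2, against 11.86, 11.33 and 12.36 (-3.87 ± 0.51 SE, adjusted p = 0.0012). Nkg7, a cytotoxic granule protein, lay between 4.96 and 6.85 (median 5.75), again highest in that array, against 9.61, 8.90 and 10.72 (-3.83 ± 0.49 SE, adjusted p = 0.0010). Since genes on these lists mark lymphocytes, their levels in the arrays labelled spleen monocytes are not covered by that label, and their source there was not tested.

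Dendritic cell genes were shared lower for 6 of 12 members and erythroid or platelet genes for 4 of 8 (Alas2, Slc4a1, Itgb3 and Ppbp), beside 9.41% of all genes. Ccr7, the homing receptor to lymphoid tissue, lay between 6.26 and 6.86 in the brain arrays (median 6.67) and at 9.28 to 9.42 in the monocytes (-2.76 ± 0.14 SE, adjusted p = 9.22e-06). Slc4a1, the red cell anion exchanger, lay between 5.95 and 6.28 (median 6.10) and measured 8.61, 10.36 and 7.70 in the monocytes (-2.78 ± 0.47 SE, adjusted p = 0.0045). The monocyte arrays thus differed among themselves by more than the brain arrays on Slc4a1.

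MHC class II and costimulation genes, by which antigen is shown to helper T cells, were shared lower for 8 of 12 measured members (H2-Aa, H2-Ab1, H2-Eb1, H2-DMa, H2-Oa, Cd74, Cd80 and Cd40) and shared higher for 0, with a median of -1.69. The shares of all genes were 9.41% and 4.12%. An antibody to MHC class II was part of the brain sort, and how it was gated is not given in the sources used here. H2-Aa, an alpha chain, measured 5.70, 6.61 and 5.88 in Ly6C-high, 6.14, 6.45 and 6.41 in Ly6C-low and 10.97, 11.14 and 11.30 in monocyte arrays (-4.94 ± 0.20 SE, 30.6-fold, adjusted p = 3.42e-06). H2-Ab1, its beta chain, measured 6.43, 6.24 and 6.22, then 7.17, 7.17 and 7.08, against 9.96, 10.19 and 10.65 (-3.55 ± 0.15 SE, adjusted p = 3.94e-06). Cd74, the invariant chain, measured 6.33, 7.40 and 7.72, then 8.49, 8.48 and 8.57, against 11.25, 11.39 and 11.74 (-3.63 ± 0.28 SE, adjusted p = 6.76e-05). The sorts overlapped for H2-Aa, while Ly6C-low arrays were the higher ones for H2-Ab1 and Cd74, still below every monocyte array. H2-Ea, outside the list and known to be defective in the haplotype of C57BL/6 mice, differed by -5.20 ± 0.18 (SE, adjusted p = 1.93e-06), and what its probe set detects was not tested.

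Promoters of MHC class II genes are known for a conserved module that ends in a Y box, a CCAAT element read in reverse, and that holds an X2 box. The windows below are the promoter sequences of the shared lower members in which the Y box letters CTGATTGG were found, shown because these genes moved together. They run from 5′ to 3′ along each gene and end just before the RefSeq start site (build GRCm38.p6), at chr17:34287824-34287923 on the minus strand for H2-Aa, chr17:34305767-34305866 on the plus strand for H2-Eb1 and chr17:34092279-34092378 on the plus strand for H2-Oa. Capitals mark CTGATTGG and, in H2-Aa, the X2 box letters TGACGTCA.

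H2-Aa: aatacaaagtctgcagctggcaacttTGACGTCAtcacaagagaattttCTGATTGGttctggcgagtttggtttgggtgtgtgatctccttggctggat

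H2-Eb1: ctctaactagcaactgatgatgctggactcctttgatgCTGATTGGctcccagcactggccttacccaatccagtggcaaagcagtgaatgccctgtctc

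H2-Oa: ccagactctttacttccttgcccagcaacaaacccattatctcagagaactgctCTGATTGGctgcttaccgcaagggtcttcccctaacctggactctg

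Of the 8 shared lower members, 5 had a promoter in the RefSeq table, and these 3 held CTGATTGG when both strands were searched, at -51 to -44 from the start in H2-Aa, -62 to -55 in H2-Eb1 and -46 to -39 in H2-Oa. It was found in 4.10% of all 32851 promoters of the same length. TGACGTCA was found in H2-Aa alone of the 5, at -74 to -67, and in 1.79% of all promoters. The motifs do not overlap. A match describes these letters only: CTGATTGG also stood in the promoter of Hspa1a, a shared higher gene. Of the genes shown, H2-Eb1 was at 5.99 to 6.45 in the brain arrays (median 6.35) and 8.96 to 10.14 in the monocytes (-3.22 ± 0.23 SE, adjusted p = 4.53e-05). H2-Oa, a subunit of a peptide exchange inhibitor, named after its values were seen, was at 6.45 to 7.35 (median 6.86) and 7.58 to 8.33 (-0.996 ± 0.17 SE, adjusted p = 0.0043).

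Interferon response genes were shared lower for 10 of 19 measured members and shared higher for 0, beside 9.41% and 4.12% of all genes. The list median was -0.97. Oas2, a sensor enzyme of double-stranded RNA, measured 6.33, 7.56 and 6.88 in Ly6C-high, 6.70, 6.23 and 6.35 in Ly6C-low and 9.57, 9.58 and 9.10 in monocyte arrays (-2.74 ± 0.26 SE, 6.68-fold, adjusted p = 1.92e-04). Irf7, the factor that amplifies type I interferon, measured 6.52, 7.82 and 8.07, then 5.74, 6.12 and 6.22, against 9.71, 9.40 and 9.25 (-2.71 ± 0.32 SE, adjusted p = 6.79e-04). Mx1, an antiviral GTPase, lay between 4.83 and 5.22 (median 5.12) against 6.53, 6.61 and 6.84 (-1.58 ± 0.11 SE, adjusted p = 3.81e-05). The Ly6C-high arrays were above the Ly6C-low arrays for Irf7, and the sorts overlapped for Oas2 and Mx1.

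Interferon-stimulated genes are bound by STAT and IRF factors at elements built on repeats of GAAA. The letters GAAA, any 2 bases and GAAA again, searched on both strands, stood in 4 of the 7 shared lower members that had a RefSeq promoter (Bst2, Ifih1, Oas1a and Rsad2), and in 3.44% of all 32851 promoters. The match in Ifih1 lay after the start site, at 32 to 41. The other 3 genes are shown because they carry the element upstream and are lower in every brain array. The windows are at chr8:71537473-71537612 (minus strand) for Bst2, chr5:120907526-120907665 (minus strand) for Oas1a and chr12:26456453-26456592 (minus strand) for Rsad2, build GRCm38.p6, with capitals on the matched letters. In Bst2 and Oas1a a pair of matches overlaps, and in Rsad2 the match is on the opposite strand.

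Bst2: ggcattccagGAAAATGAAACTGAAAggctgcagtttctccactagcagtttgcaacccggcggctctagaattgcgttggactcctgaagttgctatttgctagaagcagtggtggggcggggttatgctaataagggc

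Oas1a: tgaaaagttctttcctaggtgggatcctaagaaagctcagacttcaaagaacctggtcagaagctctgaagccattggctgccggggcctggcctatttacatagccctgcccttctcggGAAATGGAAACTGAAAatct

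Rsad2: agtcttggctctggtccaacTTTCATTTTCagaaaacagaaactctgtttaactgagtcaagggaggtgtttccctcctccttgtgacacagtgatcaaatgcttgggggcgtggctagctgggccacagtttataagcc

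Rsad2, the antiviral enzyme viperin, measured 5.91, 6.39 and 5.74 in Ly6C-high, 5.61, 5.47 and 5.44 in Ly6C-low and 7.54, 8.55 and 8.09 in monocyte arrays (-2.30 ± 0.22 SE, adjusted p = 2.32e-04). Bst2, which tethers budding virus particles, and Oas1a were named after their values were seen. Bst2 was at 7.39 to 8.11 in the brain arrays (median 7.68) and 9.03 to 9.40 in the monocytes (-1.44 ± 0.18 SE, adjusted p = 8.68e-04). Oas1a was at 5.95 to 7.19 (median 6.39) and 7.93 to 8.21 (-1.53 ± 0.22 SE, adjusted p = 0.0018).

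Trafficking and adhesion genes were shared lower for 12 of 21 measured members and shared higher for 2 (Cx3cr1 and Klf2), beside 9.41% and 4.12% of all genes. The list median was -1.11. Itga4, the integrin chain of VLA-4, measured 6.46, 8.78 and 7.08 in Ly6C-high, 6.02, 6.24 and 6.35 in Ly6C-low and 10.63, 10.68 and 10.47 in monocyte arrays (-3.77 ± 0.42 SE, adjusted p = 5.25e-04). Ccr2, the receptor by which monocytes leave the bone marrow, measured 7.62, 9.92 and 6.20, then 5.88, 6.91 and 6.54, against 10.55, 10.52 and 10.90 (-3.48 ± 0.68 SE, adjusted p = 0.0085). Ly6C-high replicate 2 was again the highest brain array for both.

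Of 24 chemokines and cytokines, 2 were shared higher (Ccl12 and Il1a) and 6 shared lower (Ccl6, Ccl9, Ccl24, Cxcl9, Il1b and Il6), beside 4.12% and 9.41% of all genes. The lower count was 3 without any 1 of the monocyte arrays, so neither count is read as a result about the list. The count of shared higher members was 4 without monocyte replicate 3. Ccl12, a monocyte-attracting chemokine, measured 6.99, 6.75 and 6.75 in Ly6C-high, 9.72, 10.51 and 10.25 in Ly6C-low and 4.75, 4.23 and 4.43 in monocyte arrays (4.02 ± 0.19 SE, 16.3-fold, adjusted p = 6.51e-06). Il1a, the alarmin interleukin-1 alpha, measured 9.96, 9.48 and 10.27, then 11.94, 11.997 and 11.97, against 8.19, 7.87 and 9.09 (2.56 ± 0.27 SE, adjusted p = 3.41e-04). Cxcl9, a chemokine induced by interferon gamma, lay between 5.03 and 6.39 (median 6.05) against 9.09, 9.42 and 9.10 (-3.27 ± 0.28 SE, adjusted p = 1.33e-04). Ly6C-low arrays were the higher brain sort for Ccl12 and Il1a.

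Complement and phagocytosis genes were shared higher for 2 of 20 (Trem2 and Gas6) and shared lower for 6 (C5ar1, Itgax, Itgb2, Fcgr4, Axl and Cfp), or 3 with the brain arrays as 1 group. Over all genes the shares were 4.12% and 9.41%. Fcgr4, an activating receptor for antibody, measured 5.21, 5.63 and 5.20 in Ly6C-high, 5.95, 6.87 and 6.87 in Ly6C-low and 8.32, 8.52 and 8.42 in monocyte arrays (-2.47 ± 0.22 SE, adjusted p = 1.38e-04). In CSF and IL-34 signalling, Kitl alone of 13 members was shared higher and 4 were shared lower (Csf2rb, Csf2rb2, Kit and Flt3), beside the same shares of all genes. The lower count was 2 without monocyte replicate 2. Kitl, the stem cell factor that is the ligand of KIT, measured 9.05, 9.26 and 9.82, then 6.96 in each Ly6C-low array, against 4.39, 4.66 and 5.40 (3.35 ± 0.24 SE, adjusted p = 4.70e-05). Its receptor gene Kit lay the other way, between 5.42 and 5.89 in the brain arrays (median 5.68) against 8.04, 7.57 and 8.29 (-2.30 ± 0.17 SE, adjusted p = 5.42e-05).

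TGF-beta signalling (2 shared higher and 2 shared lower of 18) and lysosome genes (1 and 1 of 21) were near the shares of all genes. Tgfb2 and Ski were higher and Tgfb1 and Nrros lower, none of them past the threshold in the fit of 2 groups (adjusted p = 0.1059 to 0.1603), and the count of each direction was 1 without monocyte replicate 2 or replicate 3, with the lower one also 1 without replicate 1. Without Ly6C-high replicate 1, 2 lysosome genes were shared higher. The lysosomal pair was the protease gene Ctsf, higher by 1.39 ± 0.09 (SE), and the saposin precursor gene Psap (-0.59 ± 0.12 SE), which overlapped the monocytes after quantile or cyclic loess normalization. Their adjusted p-values in the fit of 2 groups were 0.1316 and 0.1613.

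Metabolic lists leaned lower. Lipid handling had 6 shared lower members of 18 and 0 shared higher, cholesterol synthesis 6 of 17 and 0, respiratory chain 7 of 21 and 0, and glycolysis 5 of 17 with 1 shared higher. Of all genes, 9.41% were shared lower and 4.12% shared higher. Lpl, lipoprotein lipase, lay between 5.36 and 6.15 in the brain arrays (median 5.66) and measured 7.68, 7.84 and 8.79 in the monocytes (-2.36 ± 0.24 SE, adjusted p = 3.07e-04). Cyp51, a sterol demethylase, lay between 6.19 and 7.19 (median 6.71) against 8.05 to 8.12 (-1.32 ± 0.16 SE, adjusted p = 8.91e-04). Srebf2, the master regulator of sterol synthesis, lay between 6.80 and 7.77 (median 7.71) against 8.76 to 8.94 (-1.30 ± 0.19 SE, adjusted p = 0.0022). The cholesterol count was 3 without monocyte replicate 1 or without replicate 3.

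The glucose transporter genes split by form. Slc2a3, a neuronal and leukocyte form, lay between 5.76 and 6.24 in the brain arrays (median 5.98) and at 7.17 to 7.64 in the monocytes (-1.35 ± 0.13 SE, adjusted p = 2.11e-04). Slc2a1, the form of the blood-brain barrier, was the shared higher glycolysis member, at 12.14 to 12.17 in Ly6C-high, 10.36 to 10.65 in Ly6C-low and 9.65 to 9.99 in monocyte arrays (1.51 ± 0.11 SE, adjusted p = 5.17e-05, and 0.0992 in the fit of 2 groups). Cox5a, a subunit of cytochrome c oxidase, was at 8.43 to 9.57 (median 8.88) against 10.00 to 10.34 (-1.21 ± 0.12 SE, adjusted p = 2.88e-04). The respiratory chain count was 4 after quantile and 3 after cyclic loess normalization, and 11 without Ly6C-high replicate 2. The glycolysis count of shared lower genes was 2 and 3 under those normalizations, and 3 without monocyte replicate 1 or without replicate 2.

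DNA replication genes were shared lower for 8 of 22 members, and mitosis genes for 0 of 22, of which 2 passed the limma threshold as lower. Of all genes, 9.41% were shared lower and 11.4% passed as lower. Mcm6, a subunit of the replicative helicase, measured 5.85, 6.80 and 5.54 in Ly6C-high, 5.71, 5.86 and 5.93 in Ly6C-low and 8.32, 8.31 and 7.61 in monocyte arrays (-2.13 ± 0.28 SE, adjusted p = 0.0012). The mean of the mitosis list was 7.12 in Ly6C-high replicate 2, 5.43 to 5.95 in the other brain arrays and 6.22 to 7.03 in the monocytes. Without Ly6C-high replicate 2, 13 DNA replication members were shared lower genes. Without monocyte replicate 1 or replicate 2 there were 5 and 4.

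**Figure D4:**
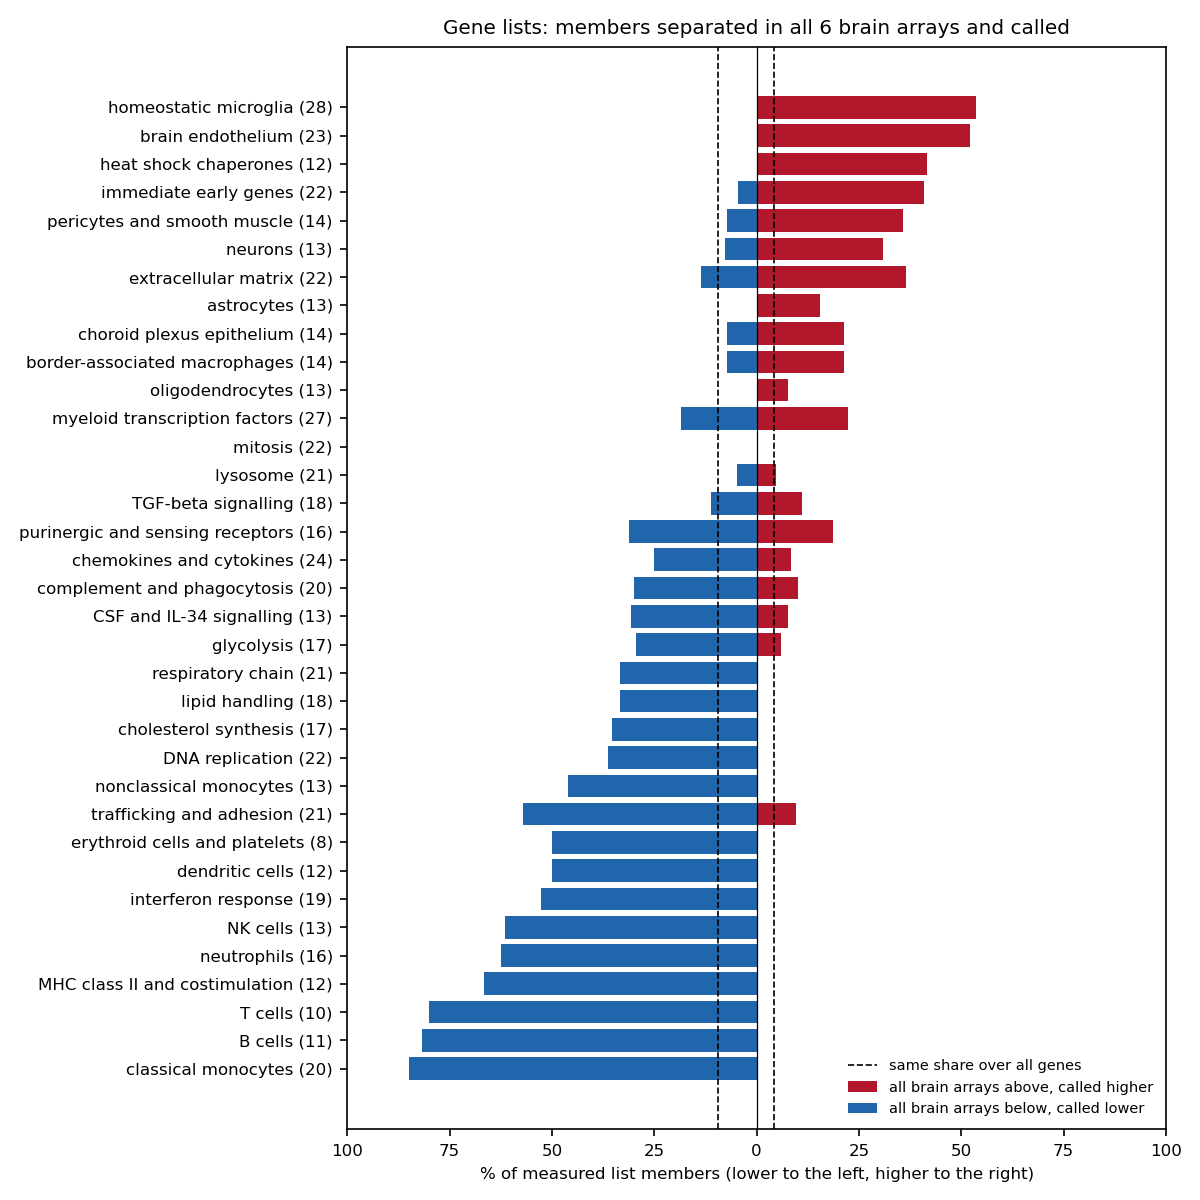
Percent of the measured members of each list that were shared higher genes (bars to the right) or shared lower genes (bars to the left), with the number measured in brackets. Dashed lines mark the same shares over all genes, 4.12% and 9.41%; 15 of 28 microglia members lie to the right and 17 of 20 classical monocyte members to the left.

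The brain sorts were not alike within the shared genes. In the same limma fit, 3080 of all 19937 genes (15.4%) differed between the sorts at an adjusted p under 0.05, 895 (4.49%) higher in Ly6C-high and 2185 (10.96%) lower. Among the 821 shared higher genes, 331 (40.3%) differed between the sorts, 156 of them higher in Ly6C-high and 175 higher in Ly6C-low arrays. Among the 1877 shared lower genes, 321 (17.1%) differed, 89 higher in Ly6C-high and 232 higher in Ly6C-low arrays. This comparison uses the brain arrays of the rule, so the shares are a description.

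The shared higher genes with the widest difference between the sorts were all barrier or vessel genes that Ly6C-high arrays carried, namely Car4, Emcn, Slco1a4, Slco1c1, Mfsd2a and Apcdd1, with differences between the sorts of 5.66 to 4.40. Mfsd2a, a lipid transporter of the barrier, measured 10.12, 10.999 and 10.87 in Ly6C-high and 6.09, 5.83 and 5.79 in Ly6C-low arrays, beside 5.74, 5.37 and 5.41 in the monocytes. It passed as higher (2.78 ± 0.20 SE, adjusted p = 5.13e-05) on a gap of 0.04 log2 units, which closed after quantile normalization or median centring. None of these 6 genes passed in the fit of 2 groups, where adjusted p-values were 0.1073 to 0.2599.

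At the other end were shared higher genes on which the sorts could hardly be separated. Hbegf, a heparin-binding growth factor of the EGF family, measured 8.86, 10.07 and 10.27 in Ly6C-high, 9.34, 10.15 and 9.68 in Ly6C-low and 5.97, 6.72 and 7.23 in monocyte arrays (3.09 ± 0.37 SE, 8.52-fold, adjusted p = 7.97e-04), with 0.01 ± 0.43 (SE) between the sorts. Ecrg4, a secreted peptide precursor, lay between 6.94 and 8.96 (median 7.71) against 5.13 to 6.00 (2.28 ± 0.40 SE, adjusted p = 0.0053). Prpf40b, a splicing factor gene, lay between 7.11 and 8.08 (median 7.34) against 6.03 to 6.28 (1.30 ± 0.22 SE, adjusted p = 0.0041). Tcim and Fosb, given above, belonged to this group too, as did Slc5a2 (0.42 ± 0.10 SE), whose call was lost without monocyte replicate 1 or replicate 3.

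Shared lower genes showed the same range. S100a4, a calcium-binding protein of migrating cells, measured 9.98, 11.04 and 7.12 in Ly6C-high, 5.78, 6.53 and 6.86 in Ly6C-low and 11.62, 11.60 and 11.66 in monocyte arrays (-3.74 ± 0.72 SE, adjusted p = 0.0084, and 0.0812 in the fit of 2 groups). Anxa2, a calcium-dependent membrane protein, was at 7.61 to 9.28, 5.73 to 5.95 and 9.55 to 10.21 (-2.69 ± 0.33 SE, adjusted p = 8.61e-04, and 0.1011). Neurl3, a ubiquitin ligase gene, had the opposite order of the sorts, at 5.88 to 6.69, 8.58 to 9.42 and 9.68 to 10.00 (-2.12 ± 0.22 SE, adjusted p = 3.68e-04, and 0.1576). Stab2, a scavenger receptor of spleen and liver sinusoids, was at 6.05 to 6.22 in all brain arrays and 7.12 to 7.81 in the monocytes (-1.27 ± 0.15 SE, adjusted p = 7.41e-04), and Tnip1, an inhibitor of NF-kB signalling, at 6.58 to 6.78 and 7.68 to 8.25 (-1.22 ± 0.14 SE, adjusted p = 5.52e-04). Stab2 and Tnip1 were named because their differences between the sorts were among the smallest, at 0.00 ± 0.18 and 0.00 ± 0.16 (SE). Their limma adjusted p-values for that difference (0.9984 and 0.9968) follow from this choice.

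**Figure D5:**
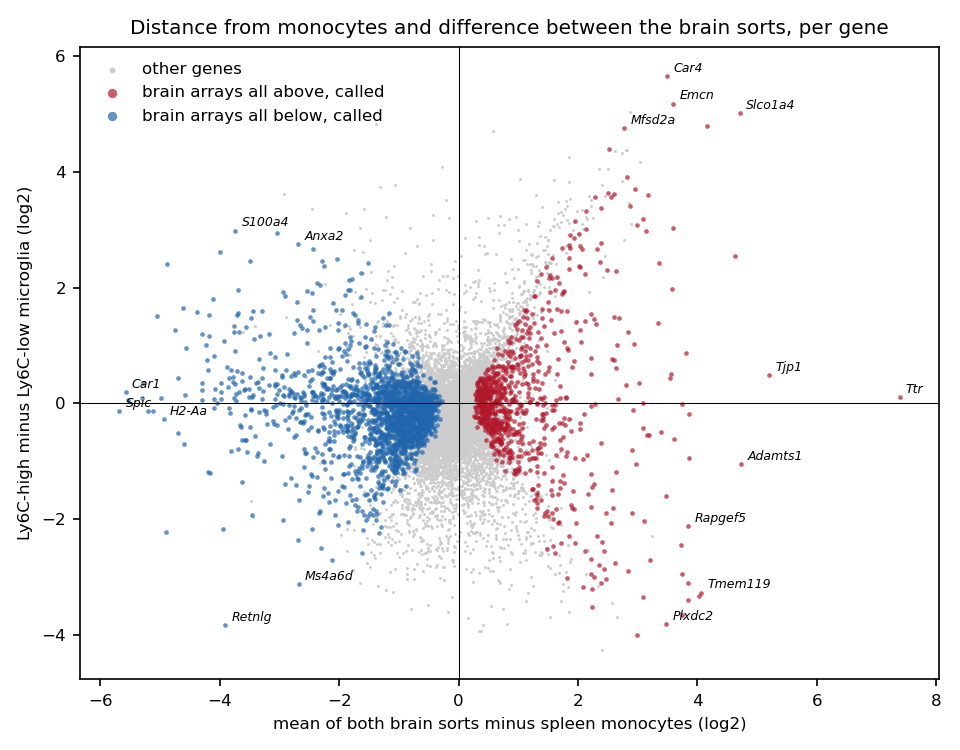
Each point is a gene, with the brain minus monocyte difference (log2) on the horizontal axis and the Ly6C-high minus Ly6C-low difference (log2) on the vertical axis; shared higher genes are red, shared lower genes blue and all others grey. Ttr lies at 7.39 near the horizontal line and Car4 at 5.66 above it.

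The array that set a gene's gap was unevenly spread. Among shared higher genes the lowest brain array was Ly6C-high replicate 2 for 205 and Ly6C-low replicate 3 for 190, and Ly6C-low replicate 1 for 48. Among shared lower genes the highest brain array was Ly6C-high replicate 2 for 564, Ly6C-low replicate 2 for 402 and Ly6C-low replicate 3 for 353, and Ly6C-high replicate 3 for 132. At the edge of the rule, the 5 narrowest gaps inside it were 0.0002 (Col15a1) to 0.0014 (Homer2) above and -0.0001 (Stam2) to -0.0016 (Zfp592) below. Just outside, the nearest brain and monocyte arrays were tied for 349 genes above and 63 below.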

How the data were processed

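The deposited values are log2 intensities of the 9 Affymetrix arrays, which the authors made with RMA in oligo, per the submitters' processing notes. Versions and settings were not stated there. RNA integrity numbers were at least 9.2, per the labels' protocols. Array medians lay between 5.83 and 5.96, and no further scaling was applied. An array gives no count of molecules, so the number of arrays limits the precision. Of 34760 probe sets, 21640 had 1 gene symbol in GEO's platform annotation, 1321 had several and 11799 had none there. The brightest single-symbol probe set stood for each of 19937 genes.

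Means of the 3 groups were fitted with limma 3.58.1 in R 4.3.3, and the contrast was the average of both sorts minus the monocytes, with Benjamini-Hochberg adjustment and a threshold of 0.05. The script was tested on simulated data. Genes are named by these rules: the 15 widest gaps in each direction among shared genes past the threshold at or above the median intensity of 6.13 (predicted genes, clones and receptor segments left out), up to 5 such members per list, the sort antigens, the 5 genes at each side of the edge, and up to 6 genes with the largest and smallest difference between the sorts. Genes said to be named after their values were seen, and list members given without a value, fall outside these rules. The genes, lists and alternatives were chosen with earlier results of these data known. Alternatives were array weights, robust and trended eBayes, quantile, cyclic loess and median normalization, other probe set rules, a filter on dim genes, each array left out, a replicate block, a random block and a fit of 2 groups. Promoters are RefSeq's (GRCm38.p6), and miRNAs are not described, since 8 of 296 measured (2.70%) were shared higher and 0 shared lower genes.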

Additional observations from a re-analysis of the deposited data

Results flagged for a closer look

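Among the 6 brain arrays, the 30 leading genes and 35 list means were looked at for an array that stood far from the others, and 6 of 65 had one. The cut-off used gives about 1 in 20 for 6 values drawn from 1 population. The brain arrays come from different sorts and the 30 genes were chosen by their values. That rate therefore cannot be set against 6 of 65. Ly6C-high replicate 2 stood apart on the DNA replication list, with a mean of 6.87, and on the mitosis list, with a mean of 7.12. Ly6C-high replicate 3 stood apart on Jam2 at 10.42 and on Pik3r3 at 9.88, Ly6C-high replicate 1 on Adgrl2 at 10.47, and Ly6C-low replicate 3 on Cd79a at 6.08. The 4 genes were chosen for having every brain array outside the monocyte range, so these arrays could not reach it. The DNA replication mean of Ly6C-high replicate 2 lay within the monocyte range of that list, and its mitosis mean just above that of the mitosis list.

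Of the 30 leading genes, 5 differed between the brain sorts themselves by the limma test of that difference at an adjusted p under 0.05, and all 5 were higher in the brain than in the monocytes. Ly6C-high minus Ly6C-low was -2.12 for Rapgef5 (adjusted p = 1.53e-05), -1.05 for Adamts1 (adjusted p = 0.0119), -0.56 for Tmc7, -0.50 for Sparc and 1.39 for Edn1 (adjusted p = 0.0052).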

How the results depend on the processing

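No named gene reversed in the 21 alternatives, and 67 of the 197 that passed lost their call in at least 1: 50 in the fit of 2 groups, 21, 22 and 18 without monocyte replicate 1, 2 and 3, and 7 under each of quantile and cyclic loess normalization. Most named genes were picked with every brain array on 1 side of the monocytes. Leaving out arrays could not reverse those, so the lack of reversals is not added support. Genes higher numbered 2618 with array weights, 327 in the fit of 2 groups, 596 at 2-fold and 753 to 1908 with 1 array left out; genes lower numbered 3500, 1234, 1232 and 1322 to 3125. The lowest of each came without monocyte replicate 1 and the highest without Ly6C-high replicate 2. Genes separated above, called or not, numbered 942 after the filter on dim genes, 3298 with the 2 arrays that stand apart on monocyte and neutrophil genes (Ly6C-high replicate 2, Ly6C-low replicate 3) left out, 71 at a gap of 1 and 2257 to 3201 with 1 array left out. Those below numbered 328 at that gap and 2525 to 2993. Shared higher genes numbered 1325 with array weights, 322 in the fit of 2 groups, 353 at 2-fold and 523 to 1242 with 1 array left out. Shared lower genes numbered 1224, 1114 and 1240 to 2467 in the last 3. Those that also differed between the sorts ranged from 278 to 434 above and from 173 to 627 below (212 after quantile normalization). Of 35 list medians, that of neurons became -0.89 under the filter on dim genes and that of purinergic receptors 0.055 after cyclic loess normalization. With the title number as a replicate block, 1287 genes were higher and 2327 lower, although same-numbered Ly6C-high and Ly6C-low arrays deviated together weakly (r = 0.30, 0.15 and -0.03), so the title numbers were not taken to pair them. The description numbers 8 and 11 occur in both sorts, and those 2 pairs correlated at 0.30 and 0.21; the labels do not say what a shared number means. With the description number as a random block, the counts were 1240 and 2113. Dim genes limit the rule above, where 76.0% of those that did not pass were dim, against 6.39% below.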
